A study of Mus musculus with 6 samples.

Results

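Mapt, Map2, Map4, Map1b, Map6, Dclk1, Macf1 and Dst encode proteins that bind microtubules, and they were described here by the splicing events listed for each in 6 RNA-seq libraries of the mouse nucleus accumbens. They were chosen by name, through the GENCODE M21 identifiers of the 8 symbols, and every entry with one of these identifiers was kept. They held 92 of 132823 distinct events and were 8 of 16154 listed genes. Adult male C57BL/6N mice had been trained in conditioned place preference, in which chambers are paired with injections. The paper describes sessions with morphine or saline that alternated between morning and afternoon, and a preference test on the day after the last session. The nucleus accumbens, a part of the ventral striatum that takes part in reward, was taken from the mice soon after that test. The saline group had 3 libraries and the morphine group had 3. The labels set the groups apart by the injection and by separate ranges of library numbers, whose meaning is not given. Whether each library held 1 mouse or pooled mice was not settled by the sources. The p-values given here come from relabelling these libraries, whose differences may be in part technical.

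Microtubules are hollow polymers of tubulin that give axons and dendrites their shape and carry transport by motor proteins. Tau (Mapt), MAP2 and MAP4 are a family whose C-terminal repeats hold the microtubule wall. MAP1B and MAP6 stabilise microtubules in neurons by other domains, and DCLK1 joins a doublecortin domain to a protein kinase. The spectraplakins MACF1 and dystonin (Dst) are giant linkers that tie microtubules to actin. Genes of this group are known for alternative exons that add or remove a repeat, a projection domain or whole arms of the protein.

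An event marks a difference among the assembled transcripts of 1 gene: a skipped exon or block of exons, a retained intron, an alternative exon end, or the first or last exon of a transcript (together called transcript ends). An event is either listed in a library or not, and the lists give no level. The libraries held 58195, 54660 and 57118 events in saline 1, 2 and 3, and 62209, 60466 and 56882 in morphine 1, 2 and 3. Their depth, relative to saline 1, was 1.07 in saline 2, 1.37 in saline 3, 1.20 in morphine 1, 1.59 in morphine 2 and 1.29 in morphine 3. Saline 3 and morphine 2 were thus the deepest of their groups. All 10 striatal marker genes examined for the tissue, among them Drd1, Drd2 and Ppp1r1b, were listed in all 6 libraries.

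Map2 and Map4 share a microtubule-binding repeat exon of 93 nucleotides, shown first because it was an alternative exon in both genes. It lay at chr1:66431527-66431619 in Map2 and chr9:110072613-110072705 in Map4, on the plus strand of GRCm38, and was coding in each. Capitals mark the bases that are the same in both.
Map2 repeat exon: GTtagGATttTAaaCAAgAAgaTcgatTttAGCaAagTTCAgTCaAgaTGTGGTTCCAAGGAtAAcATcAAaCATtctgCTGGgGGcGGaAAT
Map4 repeat exon: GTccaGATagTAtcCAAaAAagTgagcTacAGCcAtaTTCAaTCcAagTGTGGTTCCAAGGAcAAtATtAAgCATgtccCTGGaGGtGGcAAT
Without gaps, 59 of the 93 bases matched (63.4%). The exon was listed as skipped in all 6 libraries for Map2 and in all 6 for Map4, so the saline and morphine groups had the same listing.

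Mapt had 8, 6 and 6 events in saline 1, 2 and 3 and 5, 6 and 5 in morphine 1, 2 and 3. The groups overlapped at 6 events. Near the N-terminus of tau, a pair of coding exons of 87 nucleotides each is known to add short inserts. They are shown because the 3 skips among them made up, with the start of the gene, the Mapt events in all 6 libraries. They lay at chr11:104287123-104287209 and chr11:104289908-104289994 on the plus strand.
Mapt first 87-nt exon: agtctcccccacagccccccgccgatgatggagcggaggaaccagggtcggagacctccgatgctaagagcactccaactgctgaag
Mapt second 87-nt exon: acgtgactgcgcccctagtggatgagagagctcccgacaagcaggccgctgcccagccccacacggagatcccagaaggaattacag
The exons matched at only 30 of 87 bases (34.5%) when laid side by side. In all 6 libraries, transcripts were listed with both exons against neither, with the first exon alone against neither, and with both against the first alone. The joined bases show this nesting: the first exon was skipped from 104282480 to 104294859, and the second from 104287209, the end of the first, to the same 104294859. No library listed the second exon without the first.

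The remaining Mapt events all varied between libraries. A coding exon of 54 nucleotides at chr11:104307881-104307934, in 1 annotated coding transcript, was listed as skipped in saline 1, 2 and 3 and in morphine 2.
Mapt 54-nt exon: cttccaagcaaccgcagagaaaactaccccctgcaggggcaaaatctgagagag
It was listed in 3 saline libraries and 1 morphine library, and that library was the deepest of the 6. Whether depth played a part was not tested. A block of the second 87-nt exon and the exon after it was listed in saline 1 alone. The start at 104231607 was listed in all 6 libraries and the last exon beginning at 104327972 in every library but saline 1, which listed 2 upstream last exons of its own, at 104294859 and 104306626.

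Map2 had 14, 14 and 12 events in the saline group and 14, 13 and 14 in the morphine group. MAP2 is the main dendritic member of the family, and its large and small forms differ by a projection domain. The skip that separates them, a block of 3 exons of 3741, 207 and 135 nucleotides at chr1:66412407-66416866, was listed in all 6 libraries. In the annotation, a transcript with the block encodes 1828 codons, and 1 without it encodes 467. The skip of the 93-nt repeat exon and the skips of 2 non-coding exons near the 5′ end, of 63 nucleotides at 66193119 and of 65 nucleotides at 66322404, were listed in all 6 as well.

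A coding Map2 exon of 246 nucleotides at chr1:66410574-66410819, just before the large block, was the Map2 exon whose listing differed most between the groups. It is held by 1 annotated transcript.
Map2 246-nt exon: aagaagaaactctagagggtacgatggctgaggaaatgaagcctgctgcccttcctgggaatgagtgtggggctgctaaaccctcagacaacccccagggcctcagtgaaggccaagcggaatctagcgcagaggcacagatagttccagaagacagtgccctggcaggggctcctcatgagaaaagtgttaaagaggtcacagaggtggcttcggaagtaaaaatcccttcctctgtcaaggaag
It was listed as skipped in saline 1, 2 and 3 and in morphine 3, and not in morphine 1 or in morphine 2, the deepest library. The skip of the 135-nt exon on its own, at 66416732, was listed in morphine 1 alone. Map2 had 8 listed starts, of which 6 were in all 6 libraries and 2, at 66380773 and 66387135, in every library but saline 3. The usual last exon at 66438792 was listed in saline 1, saline 2, morphine 1 and morphine 3.

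Map4 is the member of the family that is also found outside neurons, and it had the steadiest long list: 10, 11 and 10 events in the saline group and 10 in each morphine library. Of its 11 distinct events, 10 were in all 6 libraries. These held skips of a 222-nt exon at 110064228, of a 114-nt exon at 110071026, of the 93-nt repeat exon, of the last 2 as a block, and of a 190-nt exon at 110081421 with 2 choices of the exon that follows. The 114-nt and 93-nt exons were nested as the Mapt pair was: the 114-nt exon was skipped between 110068985 and 110072613, the start of the 93-nt exon, and the 93-nt exon was skipped from 110068985 to 110078003. Transcripts with both, with the 93-nt exon alone and with neither were thus listed in every library, and none with the 114-nt exon alone. The starts at 109931940, 109979091 and 110053522 were in all 6 libraries, and 1 at 110015392 was in saline 2 alone. The only listed last exon, beginning at 110002746, was in all 6 and belongs to short annotated transcripts.

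**Figure D1:**
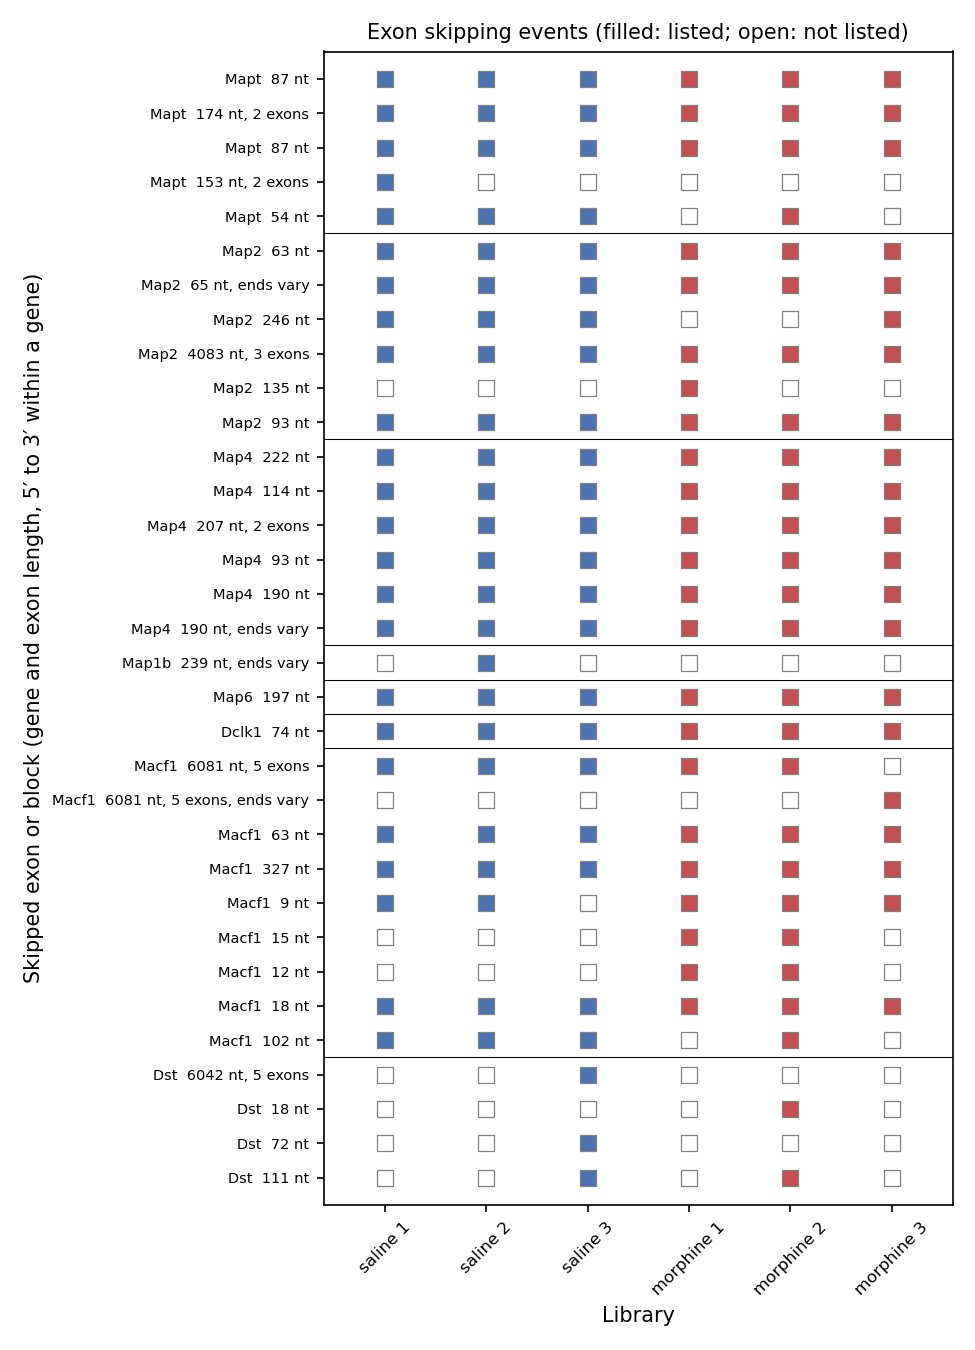
Exon skipping events of the 8 genes (rows, named by gene and summed exon length in nucleotides, in order along each gene) in the 6 libraries (columns); a filled square, blue for the saline group and red for the morphine group, is a listed event and an open square one that was not listed. In rows marked as having varying ends, the transcripts compared also differ in the ends of the exon or of its neighbours. All 6 Map4 rows are full, no row is full in 1 group and empty in the other, and the 4 Dst rows are filled only in saline 3 and morphine 2.

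Map6, Dclk1 and Map1b had short lists. Map6, which encodes a protein that protects microtubules from cold, had 3 events in every library: 1 start, 1 last exon and the skip of a coding exon of 197 nucleotides at chr7:99317472-99317668. It is shown because its length is not a multiple of 3, so that the reading frame after it depends on it.
Map6 197-nt exon: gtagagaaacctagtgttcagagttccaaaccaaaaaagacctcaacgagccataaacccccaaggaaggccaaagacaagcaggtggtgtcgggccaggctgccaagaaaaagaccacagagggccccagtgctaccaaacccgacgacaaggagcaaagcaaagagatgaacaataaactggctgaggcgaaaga
In the annotation, coding transcripts with the exon ended their reading frame at 99336999 (906 codons in 2 of them) and those without it at 99336005 (306 or 509 codons). Both forms were listed in all 6 libraries.

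Dclk1 had 6 events in every library. Its starts at 55242751 and 55462082, 0.4 and 219.7 kb into the gene, were each listed in all 6. The first is the start of a long annotated coding transcript (756 codons) and the second of shorter transcripts (449 codons in 1 of them), which are known to encode the kinase without the doublecortin domains. A 74-nt coding exon at chr3:55521850-55521923 was skipped in some transcripts of every library. A coding exon starting at 55477805 ended at 55477889 or at 55477937, again in all 6. Both exons are shown, with the 48 bases of the longer end in capitals.
Dclk1 74-nt exon: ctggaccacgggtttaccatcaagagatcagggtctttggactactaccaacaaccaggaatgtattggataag
Dclk1 exon with the longer end: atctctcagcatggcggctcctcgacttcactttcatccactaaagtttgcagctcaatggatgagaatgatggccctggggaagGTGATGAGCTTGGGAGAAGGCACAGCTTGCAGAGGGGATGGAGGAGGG
The 48 bases keep the frame, while the 74-nt exon moves it: annotated transcripts with the 74-nt exon ended their reading frame at 55533624 and those without it at 55533731. Saline 3 was the only library without the last exon at 55533570 and listed another on the opposite strand, at 55535694.

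Map1b, a microtubule-associated protein of growing axons, had 2, 4 and 3 events in the saline group and 2, 3 and 2 in the morphine group. Its start at 99516304 and its last exon at 99425961 were in all 6 libraries. The others, 1 exon skip in saline 2 and 1 retained intron each in saline 2, saline 3 and morphine 2, paired Map1b, on the minus strand, with a skipped or spliced form that the lists give on the plus strand. No intron was shared between the 3 libraries.

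Macf1 had the longest list of the 8 genes, while that of Dst was short in most libraries. Macf1 had 17, 14 and 22 events in the saline group and 18, 17 and 13 in the morphine group, and Dst had 2, 2 and 7 against 2, 5 and 2. For Dst, the libraries with more than 2 events were the deepest of each group. Of the 7 Dst events in 1 library only, 4 were in saline 3 and the other 3 in morphine 2. The part of depth in this was not tested.

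Microexons were the smallest events of the spectraplakins. Macf1 and Dst each hold a coding exon of 18 nucleotides, at chr4:123364057-123364074 on the minus strand and chr1:34296742-34296759 on the plus strand, shown because its skipping was listed unequally while its bases were nearly the same. Capitals mark shared bases.
Macf1 18-nt exon: TTCTTCCTcGGcAATCAG
Dst 18-nt exon: TTCTTCCTgGGaAATCAG
The exons matched at 16 of 18 bases (88.9%). The Macf1 exon was listed as skipped in all 6 libraries and the Dst exon in morphine 2 alone.

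Macf1 had 3 further microexon skips, on the minus strand, at chr4:123386549-123386557 (9 nucleotides) and at chr4:123368821-123368832 (12 nucleotides) or chr4:123368821-123368835 (15 nucleotides). The last 2 are skips of a single exon with a choice of 5′ end, and capitals mark the 3 bases that differ.
Macf1 9-nt exon: atcacagag
Macf1 12-nt exon: ctatgcccggaa
Macf1 15-nt exon: CAGctatgcccggaa
The 9-nt exon was listed as skipped in every library but saline 3. The 12-nt and 15-nt skips were both listed in morphine 1 and morphine 2 and in no saline library, nor in morphine 3. Over all genes, 5.26% of 8834 single skipped exons had up to 27 nucleotides. Among the 8 genes it was 5 of 26 single-exon events, all in Macf1 and Dst, with the 12-nt and 15-nt skips counted separately. The 26 include events with varying ends, which the share over all genes leaves out.

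Close to the 3′ end of both spectraplakins lay another pair of related coding exons, of 102 nucleotides in Macf1 (chr4:123354479-123354580, minus strand) and 111 nucleotides in Dst (chr1:34303421-34303531, plus strand). They are shown as a related pair whose skips were listed unequally.
Macf1 102-nt exon: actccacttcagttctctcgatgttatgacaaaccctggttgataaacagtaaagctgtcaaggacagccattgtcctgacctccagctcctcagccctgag
Dst 111-nt exon: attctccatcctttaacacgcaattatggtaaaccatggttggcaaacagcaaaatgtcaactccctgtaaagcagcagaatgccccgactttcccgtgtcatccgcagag
When aligned with gaps, 67 bases (68.4% of the aligned ones) were the same, and no other exons were aligned so as a comparison for this pair. The Macf1 exon was listed as skipped in saline 1, 2 and 3 and in morphine 2. The Dst exon was listed in saline 3 and morphine 2.

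The largest event of each spectraplakin was a block of 5 exons skipped together. In Macf1 the exons had 5331, 150, 216, 150 and 234 nucleotides in transcript order (chr4:123463538-123476337), and in Dst 5292, 150, 216, 150 and 234 (chr1:34187972-34196061). The last 4 lengths were the same in both genes, and the totals were 6081 and 6042 nucleotides. The second exon of the block, at chr4:123469723-123469872 and chr1:34193392-34193541, shows how far the bases have diverged while the length has not. Capitals mark shared bases.
Macf1 second block exon: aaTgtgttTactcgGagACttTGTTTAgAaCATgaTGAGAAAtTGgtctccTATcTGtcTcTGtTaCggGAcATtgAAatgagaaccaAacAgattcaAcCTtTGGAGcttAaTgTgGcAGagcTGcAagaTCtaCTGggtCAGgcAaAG
Dst second block exon: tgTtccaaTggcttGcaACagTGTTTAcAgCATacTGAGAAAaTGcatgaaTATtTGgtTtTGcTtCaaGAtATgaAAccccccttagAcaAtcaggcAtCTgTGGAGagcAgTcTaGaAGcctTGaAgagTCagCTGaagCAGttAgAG
Here 70 of 150 bases matched without gaps (46.7%). The third, the fourth and the fifth exons matched at 38.0%, 40.7% and 50.4% of bases, and the first, aligned with gaps, at 61.9% of aligned bases. Exons of 150 nucleotides from different places in the block matched at 24.7% in both pairings, without gaps. No exons from different places were aligned with gaps, so these pairings give no comparison for the first exon. The Macf1 block was listed as skipped in all 6 libraries, in 5 with fixed flanking exons and in morphine 3 with another base before it. The Dst block was listed in saline 3 alone.

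**Figure D2:**
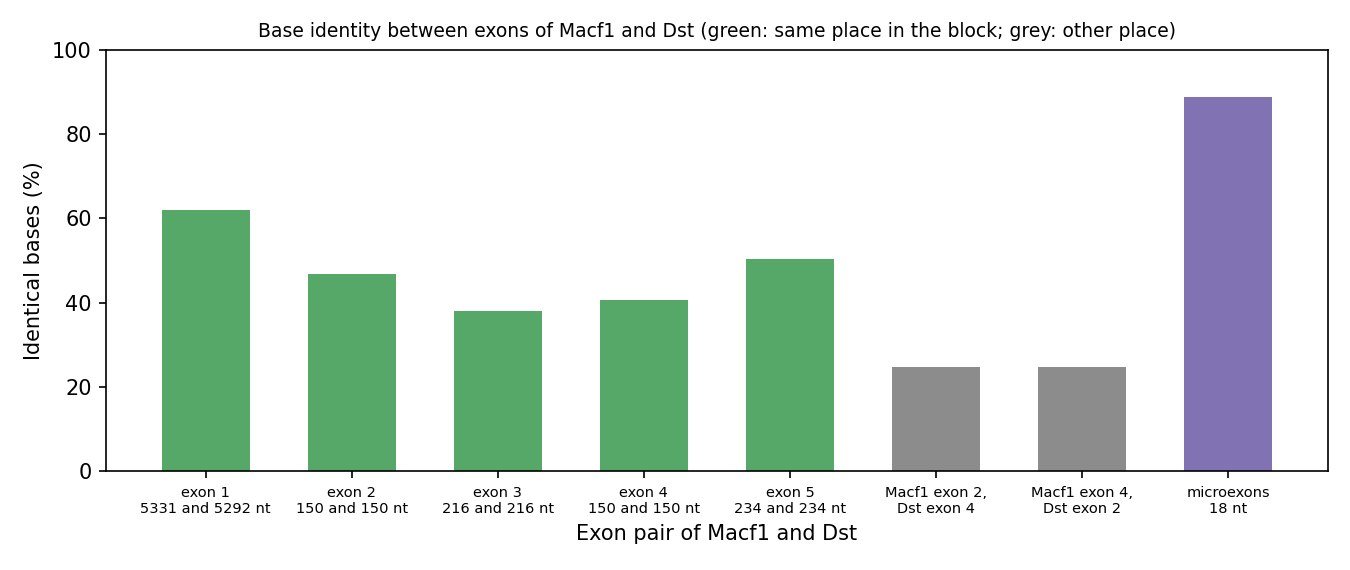
Share of identical bases (percent, bars) between exons of Macf1 and Dst: the 5 exons of the skipped block paired by place (green, from 38.0% to 61.9%), 150-nt exons paired across places (grey, 24.7% each) and the 18-nt microexons (purple, 88.9%). The first block exons were aligned with gaps and the others laid side by side. The 150-nt exons paired by place stand above those paired across places, and exons of other lengths were not paired across places.

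Further Macf1 exons of 327 nucleotides at 123397094 and of 63 nucleotides at 123441603 were listed as skipped in all 6 libraries. The only intron of the 8 genes retained in several libraries was the Macf1 intron of 1782 bases between 123504549 and 123506332, listed in every library but saline 2. A pair of alternative exon ends was listed in saline 1 alone. Macf1 had 16 listed starts, of which 6 were in all 6 libraries. Of these 6, 1 at 123687206 lay 2.8 kb before the annotated 5′ edge of the gene, and the others, at 123664466, 123544742, 123526464, 123499873 and 123471007, were the first exons of annotated coding transcripts spread over the first 213.4 kb. Of the 10 Macf1 events in a single library, 6 were in saline 3. Dst had 1 start in all 6 libraries, at 34006008, 97.8 kb into the gene, and a last exon at 34307330 in every library but morphine 2.

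**Figure D3:**
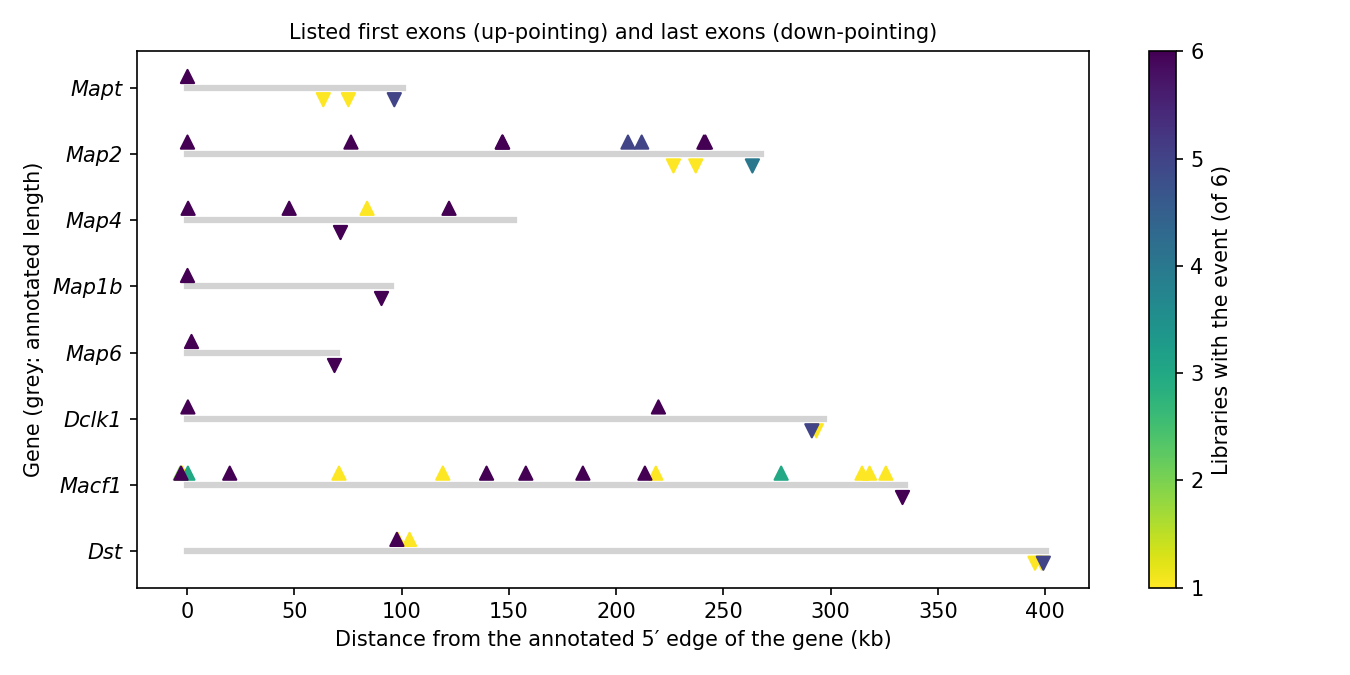
Positions of listed first exons (triangles pointing up) and last exons (pointing down) of the 8 genes, in kb from the annotated 5′ edge of each gene (grey bar: annotated length), coloured by the number of the 6 libraries with the event. Map2 and Macf1 have starts along the gene, most of those in Map2 in all 6 libraries, while several Macf1 starts are in 1 library.

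Over the 8 genes together, 33 exon skipping events were listed, all at annotated exons. All exons were coding in 31 of them, and the summed length was a multiple of 3 in 27. Among the 26 events with a single exon it was a multiple of 3 in 20. Of the single skipped exons of all genes, 51.2% had such a length, and their median was 104 nucleotides. These values over all genes leave out events with varying ends. The 26 include them and hold the Map4 exon of 190 nucleotides in both kinds. Read the other way, the annotation of the 8 genes holds 43 coding exons that some transcripts skip. Of these, 35 were in a listed skip in at least 1 library and 20 in all 6, the block exons of Macf1 included. By gene, the number in all 6 was 4 of 5 for Map2, 4 of 5 for Map4, 2 of 7 for Mapt, 8 of 13 for Macf1 and 0 of 11 for Dst.

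Events of the 8 genes were shared between libraries more often than events in general. In all, 45 of the 92 were in all 6 libraries (48.9%), against 20.5% of all events, and 29 were in 1 library (31.5%), against 50.5%. For exon skipping it was 18 of 33 in all 6 (54.5%, against 19.7% of all exon skipping events), and 6 of the 18 were in Map4. For transcript ends it was 25 of 51 (49.0%, against 29.8%). Intron retention, which had 4 events in the 8 genes, had none in all 6. In the 59 other microtubule genes, taken up below, 40 of 97 exon skipping events were in all 6 libraries, from 0 of 6 in tubulins to 14 of 20 in motors. Such sharing was thus not particular to the 8 genes. These shares are a description, since events of a gene share its reads and the 8 genes were chosen by name. Macf1 had a mean of 16.8 events per library, more than 99.0% of listed genes, Map2 13.5 (98.0%) and Map4 10.2 (95.6%), while Map1b, at 2.67, was at the median of all genes. Of the 29 events in a single library, 13 were in saline 3.

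**Figure D4:**
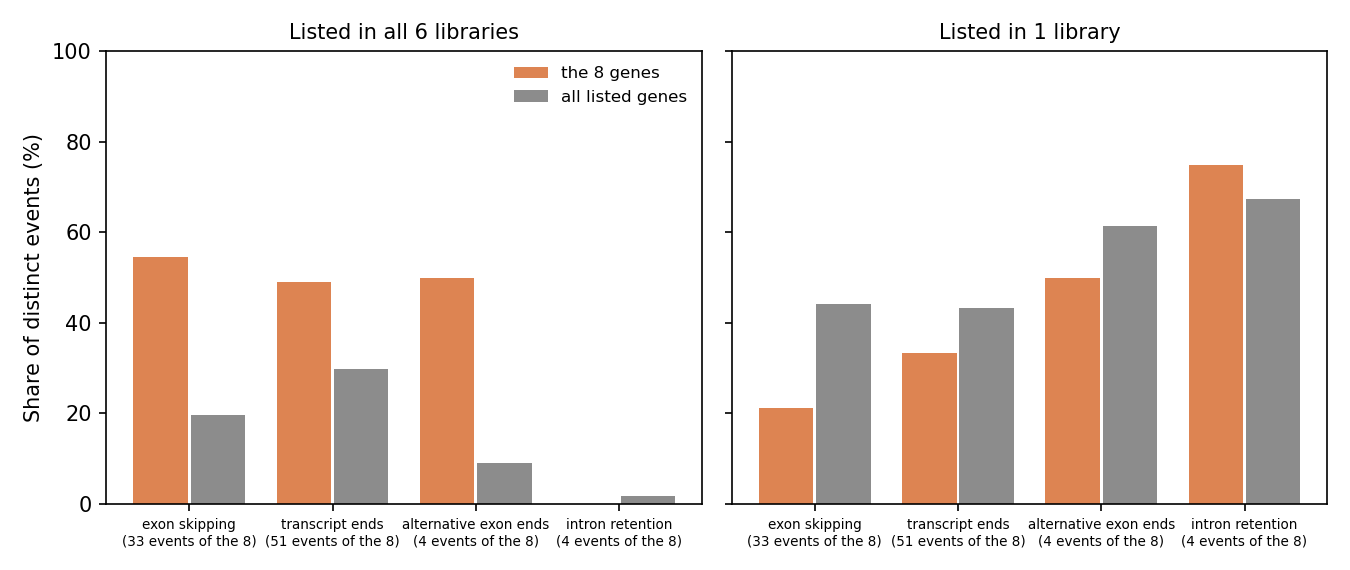
Share of distinct events (percent, bars starting at 0) listed in all 6 libraries (left) and in 1 library (right), for the 8 genes (orange) and for all listed genes (grey), by kind of event. In exon skipping, 54.5% of the events of the 8 genes and 19.7% of all events are in all 6 libraries; alternative exon ends and intron retention rest on 4 events each for the 8 genes.

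Morphine against saline was then compared over libraries. The 8 genes had 62, 60 and 69 events in saline 1, 2 and 3, a mean of 63.7 ± 4.73 (SD, n = 3), and 60, 63 and 55 in morphine 1, 2 and 3, a mean of 59.3 ± 4.04 (SD, n = 3). The groups overlapped, and the difference of -4.33 events gave p = 0.5 in a two-sided exact permutation test, which with 3 against 3 libraries cannot go below 0.1. Exon skipping numbered 24, 24 and 25 in the saline group and 23, 26 and 21 in the morphine group, with means of 24.3 ± 0.577 and 23.3 ± 2.52 (SD, n = 3) and a difference of -1 (exact permutation p = 0.7). Neither difference passed the test, and the design could not have passed it at a threshold of 0.05.

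No event was in all 3 libraries of a group and none of the other: it was 0 of 92 events of the 8 genes, where 0.658% of all events had this pattern, 506 in the morphine group and 368 in the saline group. No gene of the 8 had event numbers that did not overlap between the groups (0 of 8, against 2.77% of all genes), and none had exon skipping numbers that did not (0 of 8, against 2.05% of the 5309 genes with exon skipping). A count of 0 among 8 genes says little at such a background. Events listed in all 3 saline libraries and 1 morphine library were the skips of the Mapt 54-nt, Map2 246-nt and Macf1 102-nt exons. Those listed in 2 morphine libraries and in no saline library were the 12-nt and 15-nt skips of Macf1. The Macf1 start at 123687467 was listed in saline 2 and saline 3 and in no morphine library. The shares of all events with these weaker patterns are not given here, so the list is a description only.

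Counted per 1000 events of its library, Mapt had 0.137, 0.11 and 0.105 in saline 1, 2 and 3 and 0.0804, 0.0992 and 0.0879 in morphine 1, 2 and 3. On this scale, 1 of the 8 genes did not overlap between the groups, against 6.01% of all genes, and the exact permutation p for Mapt was 0.1, the smallest possible. The sum over the 8 genes was 1.07, 1.1 and 1.21 per 1000 in the saline group and 0.964, 1.04 and 0.967 in the morphine group, which do not overlap either (exact permutation p = 0.1). With 3 against 3 libraries, any values that do not overlap give this p, so it adds nothing to the missing overlap. The totals by which the numbers are divided were largest in morphine 1 and morphine 2. That of morphine 3 (56882) was below those of saline 1 (58195) and saline 3 (57118).

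**Figure D5:**
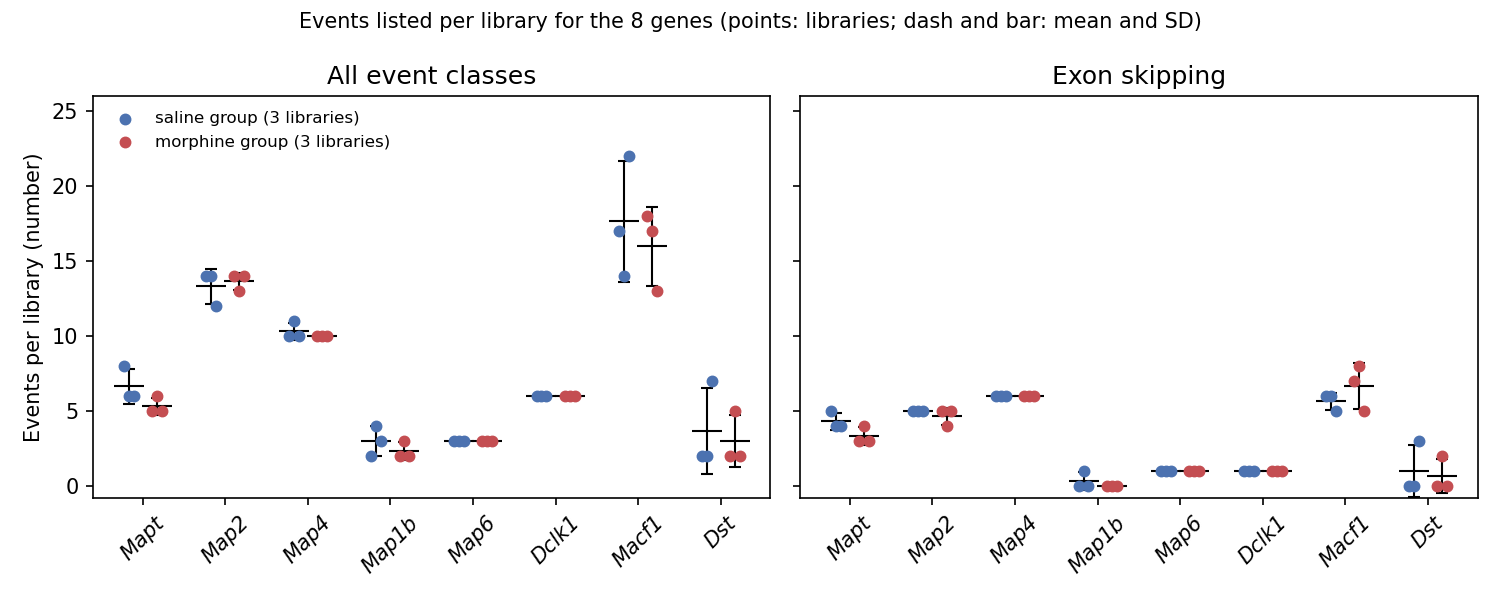
Number of events per library for each of the 8 genes, for all event classes (left) and for exon skipping (right); points are libraries of the saline group (blue) and the morphine group (red), and the dash and bar give the mean and SD of 3 libraries. The groups overlap for every gene; Map6 and Dclk1 have the same number in each library, and Macf1 and Dst spread the most.

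The other genes of the microtubule system, 59 genes in 7 lists, gave 559 events, of which 97 were exon skipping and 40 of these in all 6 libraries (15 of 32 in the proteins that bind plus and minus ends, 14 of 20 in motors, 6 of 18 in other microtubule-associated proteins, 3 of 13 in kinases, 1 of 4 in severing enzymes, 1 of 4 in plakins and 0 of 6 in tubulins). Event numbers did not overlap between the groups in 3 of the 59, set beside 2.77% of all genes, and the 3 had more in the morphine group, as did 291 of the 447 such genes among all genes. Kif3a, a kinesin motor subunit, had 6, 6 and 9 events in the saline group and 19, 11 and 13 in the morphine group. Map7, which recruits kinesin to microtubules, had 22, 11 and 25 against 39, 32 and 30. Dsp, the plakin of desmosomes, was listed in no saline library and had 2 events in each morphine library. None of its 4 distinct events was in all 3 morphine libraries, and none was exon skipping. Of the 559 events, 2 were in all libraries of the morphine group and none of the saline group, a share no larger than the 0.658% of all events that were in all libraries of a group and none of the other: a retained intron of Kif3a between 53588760 and 53593374 on chromosome 11, and a 39-nt exon of Evpl, another plakin, at 116233104 on the same chromosome. None of the 8 genes showed either pattern; whether the 8 differ from the 59 in this was not tested.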

How the data were processed

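The authors aligned reads with HISAT2 2.0.4 and assembled transcripts with StringTie 1.3.1, per the labels and the study's methods, and deposited for each library a list of alternative splicing events in the layout of the ASprofile program. Libraries were made with a kit that keeps the strand, per the study's methods. Whether assembly used an annotation is not given in the sources used here. The column named FPKM in the deposited lists held only whole numbers from -25 to 0, so it was not used as a level. A deposited table of lncRNA transcripts gave counts and FPKM values per library; their ratio, over 91 values with at least 10 counts, gave relative depth only. Its log2 fold changes and p-values are the authors' comparison and were not used. All its columns of single libraries were mapped (0 were left out).

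The 20 event types were merged into 12 classes: included and skipped (or retained and spliced) entries of a pair became 1 event, identified by class, gene, strand and coordinates, and transcript ends by the splice-side coordinate. Positions are GRCm38; between 99.30% and 99.33% of gene identifiers per library were in GENCODE M21, from whose transcripts the exon sequences were cut. Identity was counted without gaps for exons of equal length and otherwise after global alignment in Biopython 1.88 (match 1, mismatch -1, gap opening -3, gap extension -0.5). Python 3.11.15, numpy 2.4.6 and pandas 2.3.3 were used, and the counting was tested on simulated lists. Event numbers were compared over libraries with an exact permutation test, two-sided. The members and gene lists were chosen with earlier results of these data known. All 8 members were named. Of their events, those named by rule were group-specific events, skipped exons and retained introns in all 6 libraries, for a member with none its most often listed events, and the coding alternative exons of Mapt, Map2 and Dclk1. Of these exons, 1 is not reported here. The other spectraplakin and Map1b events, and events in some libraries only, were chosen after their listing was seen. Other microtubule genes were named where the groups did not overlap or, for Evpl, where an event was group-specific. The alternatives tried were identity by all coordinates, unmerged entries, events on the gene's strand within its bounds, numbers per 1000 events, and leaving out each library.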

Additional observations from a re-analysis of the deposited data

How the results depend on the processing

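Of 49 alternatives to the 5 results on event numbers, 38 left the result the same by the rule used. A difference was the same if it kept its direction and its side of the threshold of 0.05, which no setting could pass. A count was the same within 1.5-fold. Sizes moved within this rule: per 1000 events, the sums over the 8 genes no longer overlapped between the groups (exact permutation p = 0.1, which the missing overlap fixes). Without morphine 2, the difference in exon skipping had an exact permutation p of 0.1. Counted per 1000 events of the library, 1 of the 8 genes (Mapt) and 6 of the 59 other microtubule genes did not overlap between the groups, against 6.01% of all genes. Leaving out each library in turn, the difference over the 8 genes ran from -6.17 to -1.67 events, and that in exon skipping from -2.33 to 0.167, turning direction without morphine 3. Group-specific events of the 8 genes ran from 0 to 3: there was 1 without saline 1 (the Macf1 start at 123687467, saline group), 2 without morphine 2 (the skips of the Mapt 54-nt and Macf1 102-nt exons, saline group) and 3 without morphine 3 (the skip of the Map2 246-nt exon, saline group, and the 12-nt and 15-nt skips of Macf1, morphine group). Genes of the 8 that did not overlap ran from 0 to 1 (Mapt, lower in the morphine group without morphine 2), and the other microtubule genes that did not overlap from 3 to 7, with 5 without saline 1, 5 without saline 3, 6 without morphine 1 and 7 without morphine 3. With fewer libraries more events and genes meet these patterns by construction. The shares of all events and all genes that meet them with a library left out are not given here. These counts are therefore no result about the genes named.

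No paired analysis was possible because libraries carry no number in the labels that pairs a saline with a morphine sample. Listing depends on the assembly and sets no limit on the level of an isoform. The smallest p that 3 libraries a group allow is 0.1.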
